A study of Mus musculus with 30 samples.

Results

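Glutamate uptake and the glutamine cycle were followed through 9 genes of the hippocampus. They were chosen by name, and all 9 of them were found among the 21412 genes. They are Slc1a2, Slc1a3 and Slc1a1 (excitatory amino acid transporters), Slc1a4 (a neutral amino acid exchanger), Glul and Glud1 (enzymes of glutamine and glutamate metabolism), Slc38a3 (a glutamine transporter), and Slc17a7 and Slc17a6 (vesicular glutamate transporters).

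The RNA came from hippocampus samples of male BALB/c mice, 1 library per mouse and 5 mice in each of 6 groups. Mice arrived at 2 to 3 weeks of age, had 5 days to settle, and were fed the test diets for 11 weeks. Ctr mice received feed without added mercury, LD mice feed with 0.28 mg kg-1 methylmercury (MeHg), and HD mice feed with 5 mg kg-1. The MeHg was added to the feed together with cysteine, and the Ctr feed received cysteine too. These feeds were based on a purified rodent diet, and the mice were housed alone. In the Se_Ctr, Se_LD and Se_HD groups the labels add selenium, which the series title calls dietary selenium-methionine. Its dose, and the mercury content of the Se_LD and Se_HD feeds, are not given in the sources used here. The study's methods describe only the Ctr, LD and HD groups. Age, feeding time, base diet and housing are assumed to be the same in the selenium groups. On that basis the mice were young adults at sampling, and no genetic change is named for any group.

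Glutamate released at synapses is cleared mainly by astrocytes, which take it up with Slc1a2 and Slc1a3, convert it to glutamine with Glul and export the glutamine through Slc38a3. Neurons turn the glutamine back into glutamate and load it into vesicles with Slc17a7, the main form in hippocampus and cortex, or Slc17a6, the main form in thalamus and midbrain. Inhibition of astrocytic glutamate uptake by MeHg is a long-studied effect in cultured astrocytes.

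Reads on genes numbered from 5768208 to 11510521 per library, and the thinnest value of any of the 9 genes rested on 74 reads (Slc17a6 in Se_Ctr mouse 28). The genes that mark hippocampal cells (10 genes, Prox1 and Wfs1 among them) were detected in all 30 libraries. The summed level of 9 choroid plexus genes ran from 275 to 38093 normalized counts, and the summed level of 9 genes of thalamus and neighbouring regions ran from 2331 to 6592. HD mouse 21 stood apart, with 32820.3 normalized counts of Gfap, the astrocyte intermediate filament, against 1430.0 to 1988 in the Ctr mice. In a bulk sample, fewer cells of a type and less RNA per cell cannot be told apart.

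The promoters of Slc1a4 and Slc1a3 are shown. These were the only members whose windows held a match to the motifs given below. They also had the lowest unadjusted P-values (limma) between HD and Ctr, Slc17a6 apart. Slc17a6 ranked between them and is not shown, since its windows held no match. The sequences run 5′ to 3′ on the gene's strand, from 250 bases before the start of the gene to 30 bases after it, and are from RefSeq (build GRCm38.p6). Capitals mark the matches to motifs that were searched on both strands. The motifs were chosen after the values were seen. They were the C/EBP-ATF element TGATGCAA, the STAT palindrome TTCNNNGAA and the antioxidant response element core TGACNNNGC.
Slc1a4, chr11:20332684-20332963, minus strand: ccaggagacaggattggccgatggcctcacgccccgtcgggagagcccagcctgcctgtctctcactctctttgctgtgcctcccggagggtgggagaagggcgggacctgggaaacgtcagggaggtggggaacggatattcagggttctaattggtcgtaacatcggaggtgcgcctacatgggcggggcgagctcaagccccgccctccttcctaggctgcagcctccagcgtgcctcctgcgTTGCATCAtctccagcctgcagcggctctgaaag
Slc1a3, chr15:8710778-8711057, minus strand: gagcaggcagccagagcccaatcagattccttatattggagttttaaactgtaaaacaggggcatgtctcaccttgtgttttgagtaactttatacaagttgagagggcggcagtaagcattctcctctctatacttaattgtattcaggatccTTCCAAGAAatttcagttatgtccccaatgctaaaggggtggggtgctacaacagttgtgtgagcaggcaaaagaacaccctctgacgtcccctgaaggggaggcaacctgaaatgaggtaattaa

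The Slc1a4 window held the C/EBP-ATF element on the opposite strand (TTGCATCA), from 4 bases before the start to base 4 after it. Of 32851 promoters of the same length, 0.877% held this motif. The Slc1a3 window held 1 STAT palindrome, TTCCAAGAA, 96 to 88 bases before the start, a motif found in 7.83% of promoters. The antioxidant core was found in 11.5% of promoters and in no window of the members. No other member window held any of the 3 motifs, and Slc38a3 had no entry in the promoter table. A match of letters is a description and not a binding site.

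Per kilobase of exon, which allows levels to be compared between genes, Glul was the most abundant transcript of the set, with 6495 ± 1041 normalized counts per kilobase (SD over 30 libraries). Slc1a2 followed with 2508 ± 257 and Slc17a7 with 2264 ± 300.02, and these neighbours overlapped, with Slc1a2 the higher in 22 of 30 libraries. Slc1a3 stood at 786 ± 62.1 normalized counts per kilobase, above Glud1 at 454 ± 36.7 in every library. Slc1a1 (322 ± 35.4) lay below Glud1 in 28 of 30 libraries. The least abundant were Slc38a3 at 175 ± 26.4, Slc1a4 at 142 ± 38.9 and Slc17a6 at 73.9 ± 39.8 normalized counts per kilobase. Slc38a3 exceeded Slc1a4 in 25 of 30 libraries and Slc1a4 exceeded Slc17a6 in 26 of 30. The remaining neighbours kept their order in all 30 libraries.

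**Figure D1:**
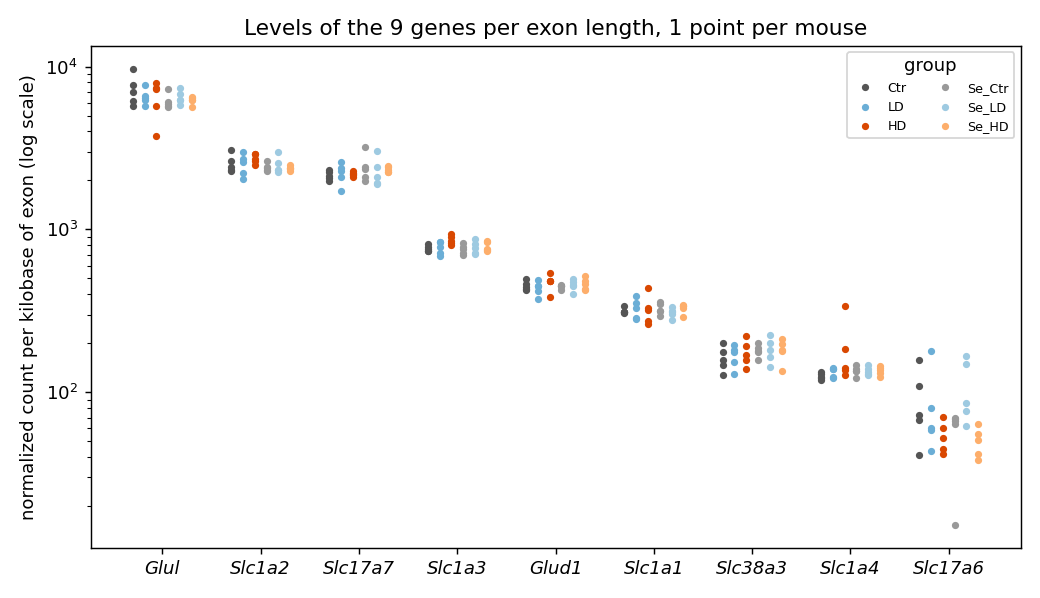
Normalized count per kilobase of exon (log axis) of each of the 9 genes, ordered from high to low, with 1 point per mouse and colour by group. Glul lies on top in all 30 libraries, and Slc17a6 has the widest spread, from 15.4 to 179.8 per kilobase.

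The question of the study is how MeHg, alone or with selenium, acts on the hippocampus. For the 9 genes, no comparison between groups passed an adjusted P of 0.05 (limma, Benjamini-Hochberg over all genes tested). Between HD and Ctr mice, 0 of 9 members passed, where 0.13% of 20031 genes did. At an unadjusted P under 0.05, 1 of 9 members passed (Slc1a4, higher), against 8.34% of all genes, of which 5.08% were higher and 3.26% lower. The median log2 fold change was 0.07 over the members and 0.01 over all genes. No member had groups that did not overlap, where 1.76% of genes did. The same held in the other 8 pairwise comparisons, where the share of genes without overlap was 0.399% (LD against Ctr), 1.38% (HD against LD), 0.815% (Se_HD against Se_Ctr), 0.511% (Se_LD against Se_Ctr), 0.682% (Se_HD against Se_LD), 0.761% (Se_Ctr against Ctr), 0.361% (Se_LD against LD) and 1.6% (Se_HD against HD). The count-based tests gave the same answer at the adjusted threshold: 0 of 9 members in edgeR and 0 of 9 in DESeq2.

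Over all 14 contrasts of the design, which share mice, 8 of 126 pairs of a member and a contrast had an unadjusted P under 0.05 and 0 passed after adjustment. In single contrasts 2.69% to 9.09% of all genes had an unadjusted P under 0.05. Of the 8 pairs, 5 belonged to Slc1a4 and 3 to Slc17a6. For the other 7 members the log2 fold changes of all 98 pairs lay between -0.23 and 0.22.

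**Figure D2:**
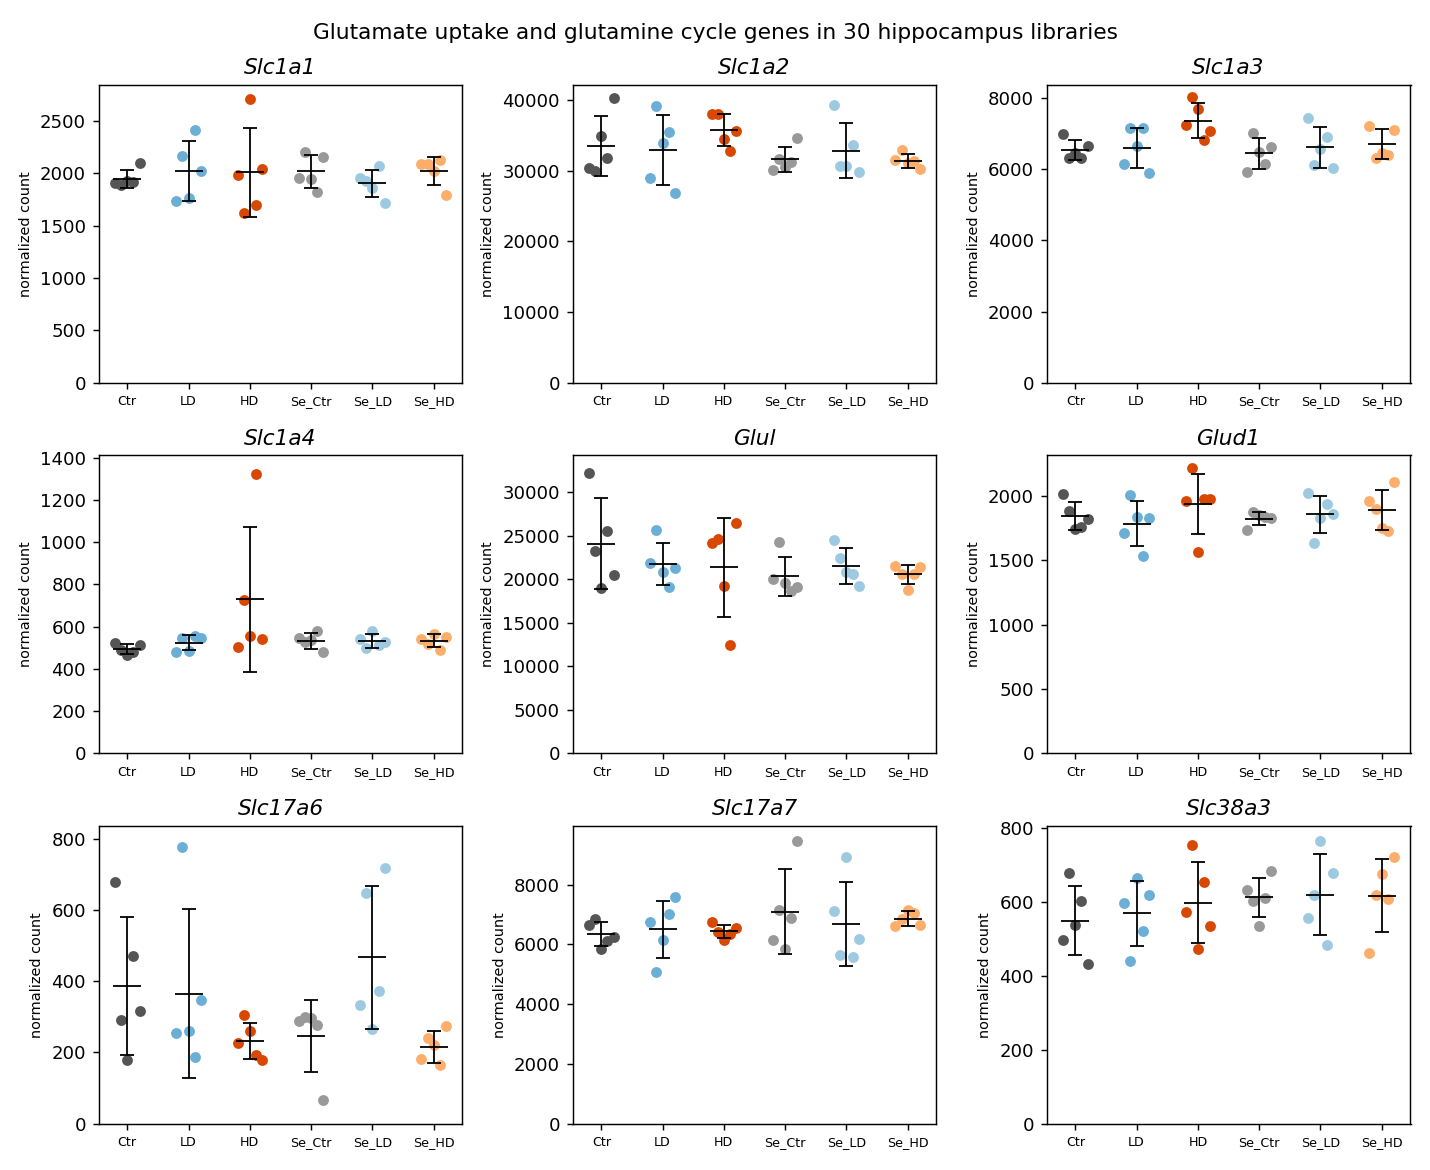
Normalized counts (linear axes from 0) of the 9 genes in the 6 groups, with 1 point per mouse, the mean as a bar and the SD as whiskers (n = 5). Slc1a4 is spread from 502 to 1323 in HD and lies between 466 and 580.5 in the other groups, while Slc17a6 varies widely in several groups.

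Slc1a2 (chr2:102498816-102630941 in NCBIM37, plus strand) encodes GLT-1, the main astrocytic glutamate transporter of the forebrain. It measured 30327, 30001, 34846, 31840.1 and 40221 normalized counts in the Ctr mice. The LD mice had 26808 to 39159 and the HD mice 32704 to 37971. All 3 groups overlapped, and every HD mouse lay within the range of the Ctr mice. The log2 fold change of HD over Ctr was 0.10, with a 95% interval from -0.21 to 0.41 (unadjusted P = 0.498, adjusted P = 0.91). With selenium the means were 31616 ± 1788 in Se_Ctr, 32818 ± 3903 in Se_LD and 31389 ± 981 in Se_HD (SD, n = 5). Se_HD differed from Se_Ctr by -0.01 on the log2 scale, with an interval from -0.20 to 0.18. In 4 of 5 Se_HD mice Slc1a2 was below all HD mice, at a log2 difference of -0.19 (interval -0.42 to 0.05, unadjusted P = 0.121, adjusted P = 0.73). After quantile normalization that difference was 0.04 (unadjusted P = 0.739). Over all contrasts and alternative settings, 2 values of Slc1a2 had an unadjusted P under 0.05. The gene span of Slc1a2, introns included, overlaps that of Gm13872 on the opposite strand.

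Slc1a3 (chr15:8584124-8660764, minus strand) encodes GLAST, the astrocytic transporter that is also found on radial glia. The Ctr mice had 6992, 6312, 6449, 6301 and 6642 normalized counts and the HD mice 7239, 8018, 7689, 6809 and 7073. In 4 of 5 HD mice the level was above that of every Ctr mouse, and the remaining one, mouse 21, lay within the Ctr range. The log2 fold change was 0.17 ± 0.10 (SE), with an interval from -0.03 to 0.37 (unadjusted P = 0.0891, adjusted P = 0.691). DESeq2 gave the same fold change of 0.17 with an unadjusted P of 0.0179 and an adjusted P of 0.361, within a range of 0.361 to 0.764 over the other settings. The LD mice, from 5902 to 7153, spanned the Ctr range, at a log2 fold change of 0.01 (interval -0.19 to 0.21). On selenium the means were 6441 ± 424 in Se_Ctr, 6614 ± 579.8 in Se_LD and 6702 ± 429 in Se_HD. Se_HD over Se_Ctr was 0.06, from -0.09 to 0.21.

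Slc1a3 was set beside other astrocyte genes. Over the 30 libraries its log2 level had a Pearson r of 0.70 and a Spearman rho of 0.66 with the mean log2 level of 12 astrocyte genes that hold no member, and r was 0.68 without the 2 libraries farthest from the median. Within groups r was 0.52. Slc1a2 had r = 0.34 with the same list, and 0.06 within groups. Slc1a2 and Slc1a3 correlated with each other at r = 0.66 (rho = 0.68, and r = 0.70 without the 2 farthest libraries). The libraries share their size-factor scaling, and these values are descriptions. In the HD mice 4 of 12 astrocyte genes were higher than in Ctr at an unadjusted P under 0.05 (5.08% of all genes), with a list median of 0.23, and 0 of 12 passed after adjustment. The summed astrocyte list ranged from 24621 to 31472 normalized counts in HD and from 20205 to 26829 in Ctr. The part of this list in the Slc1a3 values was not tested.

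Slc1a1 (chr19:28909539-28988450, plus strand) encodes EAAC1, the transporter of neurons, which also carries cysteine. It measured 1894 to 2099 normalized counts in Ctr, 1741 to 2416 in LD and 1625 to 2706 in HD. The HD range enclosed the Ctr range on both sides, and the SD was 427 in HD against 84.9 in Ctr. On the log2 scale HD over Ctr was 0.02, from -0.23 to 0.28. In the selenium groups the means were 2019 ± 159, 1907 ± 129.6 and 2023 ± 135 for Se_Ctr, Se_LD and Se_HD. The gene span of Slc1a1, introns included, overlaps those of Gm5822 and 4430402I18Rik on the opposite strand.

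Slc1a4 (chr11:20202183-20232716, minus strand) encodes ASCT1, which exchanges alanine, serine, cysteine and threonine and is the main carrier of serine in astrocytes. The Ctr mice had 523, 488, 466, 478 and 512 normalized counts. The HD mice had 502, 727, 554, 1323 and 540.0, in the order of mice 3, 9, 15, 21 and 27. In 4 of 5 HD mice the level was above every Ctr mouse, and mice 21 and 9 were the highest. Likewise 4 of 5 Se_Ctr mice and 3 of 5 LD mice were above every Ctr mouse. HD mice 3, 15 and 27 lay within the Se_Ctr range of 478 to 580. The log2 fold change of HD over Ctr was 0.46 ± 0.18 (SE), with an interval from 0.09 to 0.83 (unadjusted P = 0.0177, adjusted P = 0.451). Without HD mouse 21 it was 0.22, with an unadjusted P of 0.048 and an adjusted P of 0.782. Over the single mice left out, it ran from 0.22 to 0.57 and the adjusted P from 0.293 to 0.782.

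The LD mice had 481, 546, 486, 555 and 546 normalized counts of Slc1a4, a log2 fold change of 0.08 over Ctr (interval -0.29 to 0.45, unadjusted P = 0.653). Between HD and LD, 0 of 9 members passed the adjusted threshold, where 0.0499% of genes did, and Slc1a4 was the 1 member with an unadjusted P under 0.05, against 6.96% of genes. Its log2 difference was 0.38 (interval 0.01 to 0.75, unadjusted P = 0.0462). Without HD mouse 21 the difference was 0.14 (unadjusted P = 0.199).

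Under selenium the Slc1a4 means were 533 ± 36.9 normalized counts in Se_Ctr, 532 ± 31.4 in Se_LD and 532 ± 30.9 in Se_HD. The 5 Se_HD mice had 541, 516, 566, 487 and 551, all within the range of the Se_Ctr mice. Se_HD over Se_Ctr was -0.00 on the log2 scale, with an interval from -0.14 to 0.14.

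Between Se_HD and HD mice the log2 difference of Slc1a4 was -0.35 (interval -0.64 to -0.06, unadjusted P = 0.0187, adjusted P = 0.47). In that contrast 0 of 9 members passed the adjusted threshold, where 0.327% of 21383 genes did, and 1 of 9 had an unadjusted P under 0.05, where 8.38% did. Without HD mouse 21 the difference was -0.11 (unadjusted P = 0.196). Glial lists moved in the same contrast: 7 of 10 microglia genes, 2 of 8 reactive astrocyte genes and 1 of 12 astrocyte genes were lower in Se_HD after adjustment (0.327% of all genes in either direction), and 9, 7 and 6 had an unadjusted P under 0.05. Their part in the Slc1a4 values was not tested. An interaction term asked whether HD acted differently with selenium, and Slc1a4 gave -0.46 (unadjusted P = 0.0288, adjusted P = 0.997). It was the only member of the 9 under 0.05, against 4.77% of genes, and 0 passed after adjustment, as did 0% of genes. Without HD mouse 21 the interaction was -0.22 (unadjusted P = 0.0689). Pooled over both diets, HD gave 0.23 for Slc1a4 (unadjusted P = 0.0291, adjusted P = 0.48), with 0 of 9 members passing where 0.21% of genes did, and 1 of 9 under an unadjusted 0.05 where 9.09% of genes were. Without HD mouse 21 this was 0.11 (unadjusted P = 0.0702).

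**Figure D3:**
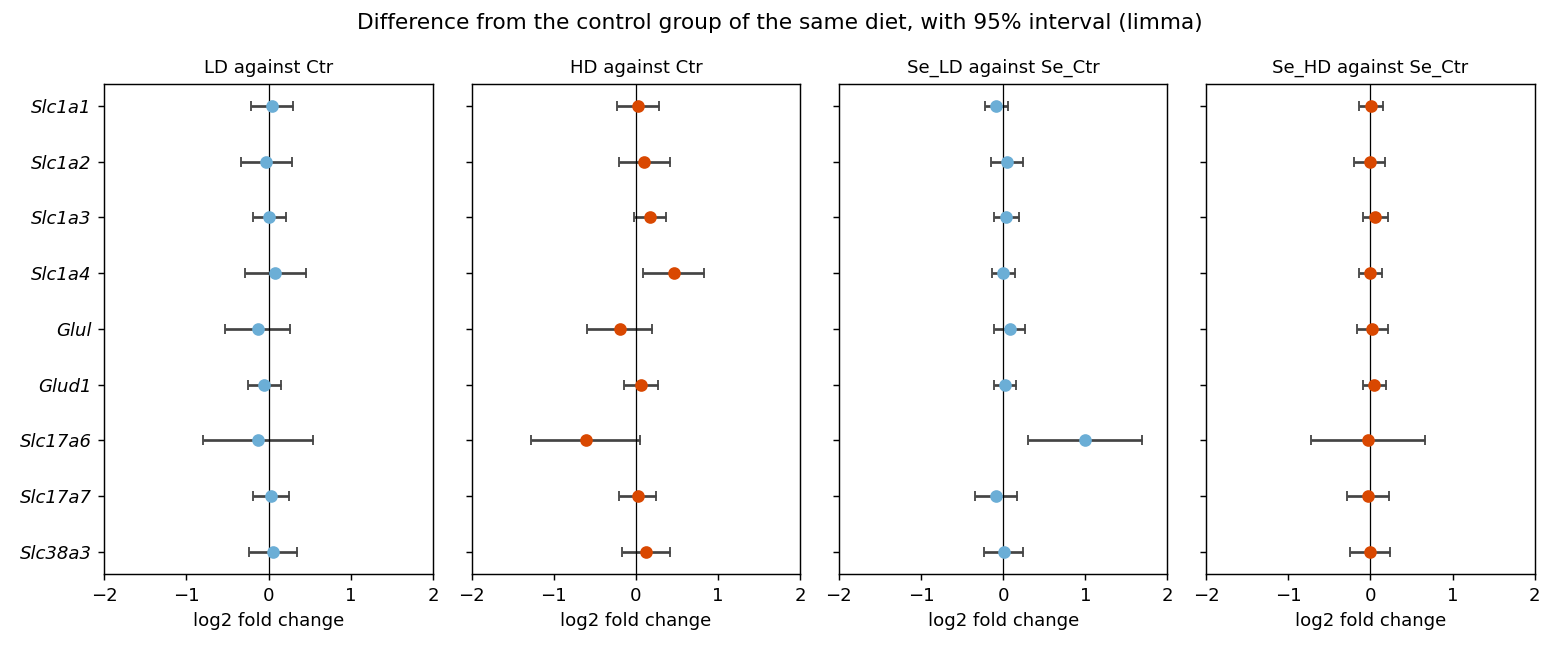
Log2 fold change of each gene in 4 contrasts with the control group of the same diet, with limma's 95% interval as whiskers. The intervals of Slc1a4 in HD against Ctr (0.09 to 0.83) and of Slc17a6 in Se_LD against Se_Ctr (0.30 to 1.69) leave out 0, although neither passed after adjustment over all genes.

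In all 5 HD mice Gfap and the summed reactive astrocyte and microglia lists were above every Ctr mouse. Not every gene of the lists was. Vim ranged from 189.6 to 3548 normalized counts in HD and from 204 to 274 in Ctr. Cd44 ranged from 60.2 to 1610 in HD and from 58.6 to 83.4 in Ctr. Gfap measured 7281, 12446, 5143, 32820.3 and 4080.2 normalized counts in HD mice 3, 9, 15, 21 and 27. Mice 21 and 9 were highest in both Gfap and Slc1a4, while mouse 3, with the lowest Slc1a4 of the group, had the next highest Gfap. Gfap rose between Ctr and HD by 2.39 on the log2 scale (adjusted P = 0.00716). Of 8 genes of the reactive astrocyte list, 2 passed the adjusted threshold (Gfap and C4b, a complement component), where 0.13% of all genes did, and 7 had an unadjusted P under 0.05, where 8.34% did. The summed list ranged from 6006 to 44718 in HD and from 2763 to 3335 in Ctr. Lcn2, a defining gene of that list, was at 0 in 12 libraries, and Steap4 in 2. Of 10 microglia genes 3 passed the adjusted threshold (0.13% of all genes) and all 10 had an unadjusted P under 0.05 (8.34%), with sums from 3372 to 7672 in HD and from 2648 to 2957 in Ctr. The HD mice formed a cluster of their own in Gfap, so no correlation over all mice is given. Within the 25 other libraries Slc1a4 and Gfap had r = 0.02 and rho = 0.02. In the same libraries Slc1a4 and the microglia list had r = 0.39 and rho = 0.36 (r = 0.37 without the 2 farthest), and Slc1a4 and the reactive astrocyte list r = -0.17 and rho = -0.11 (r = -0.28 without the 2 farthest). The part of the glial lists in the Slc1a4 values was not tested.

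**Figure D4:**
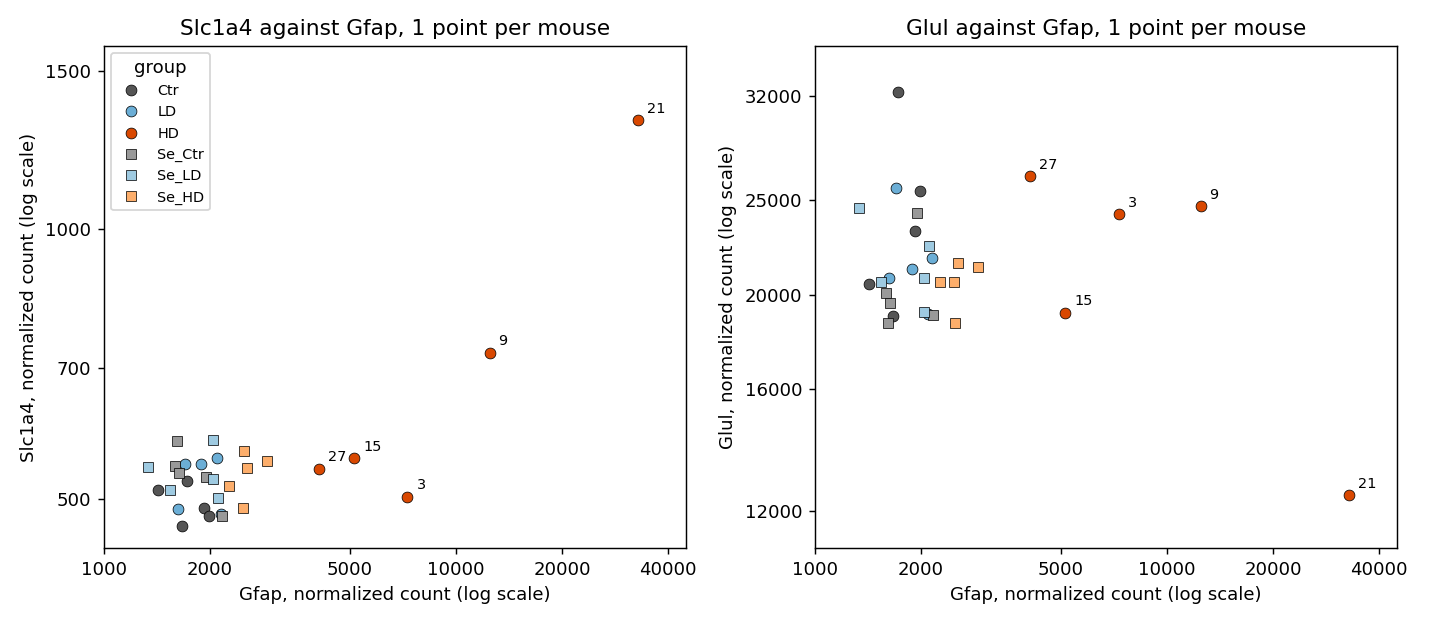
Slc1a4 (left) and Glul (right) against Gfap, all in normalized counts on log axes, with 1 point per mouse and the HD mice numbered. HD mouse 21 has the highest Gfap and Slc1a4 and the lowest Glul of all 30, and the 25 mice of the other groups lie between 1337 and 2909 in Gfap.

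Glul (chr1:155747074-155756853, plus strand) encodes glutamine synthetase, which in brain is mainly an astrocytic enzyme. The Ctr mice had 32277, 23243, 19011, 25539.9 and 20514 normalized counts and the HD mice 24227, 24645, 19187, 12466 and 26477. Mouse 21 was the lowest of all 30 mice, while the other HD mice lay within the Ctr range. The log2 fold change of HD over Ctr was -0.20 (interval -0.59 to 0.20, unadjusted P = 0.313, adjusted P = 0.855) and -0.01 without mouse 21. HD mouse 21 also had the lowest summed level of 8 excitatory neuron genes in its group, 26746 normalized counts, where the Ctr mice had 43207 to 46792. Over all 30 libraries Slc1a4 and Glul had r = -0.54 (rho = -0.16), and r = -0.11 without the 2 farthest, so the relation rests on those libraries. Across the 25 libraries outside HD r was -0.10 (rho = -0.11).

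For LD the log2 fold change of Glul was -0.13 (interval -0.53 to 0.27), and -0.02 without Ctr mouse 1 or -0.23 after quantile normalization, with 19111 to 25734 normalized counts in the LD mice. The selenium groups were narrower, at 20355 ± 2249 in Se_Ctr, 21535 ± 2043 in Se_LD and 20582 ± 1121 in Se_HD. Se_HD over Se_Ctr gave 0.02 (interval -0.17 to 0.21). The gene span of Glul, introns included, overlaps those of 5830403L16Rik and Gm11074 on the opposite strand and A930039A15Rik on its own strand. Reads of any shared exon bases could have been lost or assigned elsewhere, and overlap of exons was not examined.

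Glud1 (chr14:35123913-35158330, plus strand) encodes mitochondrial glutamate dehydrogenase. Its means were 1846 ± 111 in Ctr, 1786 ± 173 in LD and 1941 ± 233 normalized counts in HD. The HD mice ranged from 1568 to 2216 and enclosed the Ctr mice at 1742 to 2019. HD over Ctr was 0.07 on the log2 scale (interval -0.14 to 0.27). In the selenium groups the means were 1826 ± 52.4, 1859 ± 143 and 1891 ± 158 for Se_Ctr, Se_LD and Se_HD. Se_HD over Se_Ctr was 0.05 (interval -0.09 to 0.19).

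Slc38a3 (chr9:107552970-107569705, minus strand) encodes SNAT3, which releases glutamine from astrocytes. It measured 433 to 676 normalized counts in Ctr, 441 to 663 in LD and 472 to 754 in HD. HD over Ctr was 0.12 (interval -0.17 to 0.41). The selenium means were 611 ± 53.7, 619 ± 109 and 616 ± 97.9 in the order Se_Ctr, Se_LD and Se_HD, and Se_HD over Se_Ctr was -0.00 (interval -0.24 to 0.24). Across libraries Slc38a3 and Slc1a1 moved in opposite ways, with r = -0.59 (rho = -0.56, and r = -0.54 without the 2 farthest libraries). They also differed in their relation to log2 library depth, with r = 0.45 for Slc38a3 and r = -0.28 for Slc1a1. The part of depth in this relation was not tested.

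Slc17a7 (chr7:52419291-52431508, plus strand) encodes VGLUT1, the vesicular carrier of hippocampal principal neurons. It had 6342 ± 404 normalized counts in Ctr, 6508 ± 951 in LD and 6434 ± 219 in HD. All HD mice, from 6149 to 6733, lay within the Ctr range of 5855 to 6844. HD over Ctr was 0.02 (interval -0.20 to 0.24). Se_HD over Se_Ctr gave -0.03 (interval -0.28 to 0.23). Se_Ctr mouse 28 had the highest level of all, 9454, and LD mouse 8 the lowest, 5081.

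Slc17a6 (chr7:58877200-58926495, plus strand) encodes VGLUT2 and was the most variable member, with a CV of 53.8% over the 30 libraries. The Se_Ctr mice had 289.6, 301, 297, 277 and 66.3 normalized counts, the last in mouse 28. The Se_LD mice had 332, 648, 267, 372 and 717, in the order of mice 5, 11, 17, 23 and 29. The Se_HD mice had 181, 240.1, 221, 165 and 275. In 4 of 5 Se_LD mice the level was above every Se_Ctr mouse, and mice 11 and 29 stood far above the rest.

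The log2 fold change of Slc17a6 in Se_LD over Se_Ctr was 1.00 ± 0.33 (SE), with an interval from 0.30 to 1.69 (unadjusted P = 0.00697, adjusted P = 1.00). In that contrast 0 of 9 members passed the adjusted threshold, as did 0% of 19679 genes, and Slc17a6 was the 1 member under an unadjusted 0.05, against 3.31% of genes. Without Se_Ctr mouse 28 the fold change was 0.57 (unadjusted P = 0.0161, adjusted P = 0.995). Se_HD differed from Se_LD by -1.02 (interval -1.72 to -0.33, unadjusted P = 0.00582, adjusted P = 0.899), again with 0 of 9 members adjusted (0% of genes) and 1 of 9 unadjusted (4.94% of genes). Se_HD and Se_Ctr differed by -0.03 (interval -0.72 to 0.67), and by -0.45 without Se_Ctr mouse 28 (unadjusted P = 0.0525).

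Without selenium the Ctr mice had 679.8, 290.3, 179, 472 and 316 normalized counts of Slc17a6. The LD mice had 255, 777, 262, 188 and 347, and the HD mice 227, 304, 261, 193 and 179.7. The groups overlapped throughout, and the high values were those of Ctr mouse 1 and LD mouse 8. HD over Ctr was -0.61 (interval -1.28 to 0.05, unadjusted P = 0.0697, adjusted P = 0.652), and -0.37 without Ctr mouse 1. Without Ctr mouse 13 it was -0.85 (unadjusted P = 0.0114), and 3 of 15 values with 1 mouse left out had an unadjusted P under 0.05. edgeR gave -0.75 for this contrast with an unadjusted P of 0.0417 and an adjusted P of 0.536, within 0.508 to 0.757 over the other settings. The effect of LD differed between the diets by 1.12 (interaction, interval 0.09 to 2.16, unadjusted P = 0.0342, adjusted P = 0.998). It was the only one of 9 members under 0.05, against 3.75% of genes, and 0% of genes passed after adjustment. Without Se_Ctr mouse 28 the interaction was 0.70 (unadjusted P = 0.116), and without Se_LD mouse 11 or 29 it was 0.98 or 0.94 (unadjusted P = 0.0697 and 0.0765).

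The 3 libraries with the highest Slc17a6 in LD and Se_LD were also those with the most RNA of thalamus genes. The summed list of 9 such genes, Tcf7l2 and Prkcd among them, was 5927 in LD mouse 8, 6592 in Se_LD mouse 11 and 6417 in Se_LD mouse 29. The other 27 libraries lay between 2331 and 3882. Ctr mouse 1, at 3365, was the highest of the Ctr mice in the list as well as in Slc17a6. Se_Ctr mouse 28, the lowest in Slc17a6, was the second highest of its group in the list, at 2974. By group the list ran from 2656 to 6592 in Se_LD, from 2336 to 3882 in Se_Ctr and from 2410 to 3783 in Se_HD. In Se_LD over Se_Ctr 6 of 9 list genes were higher at an unadjusted P under 0.05 (3.31% of all genes, in either direction), with a median of 0.60, and 0 of 9 passed after adjustment. Without selenium the list median was 0.45 in LD over Ctr and -0.05 in HD over Ctr, where Slc17a6 gave -0.13 and -0.61.

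Over 30 libraries Slc17a6 and the mean log2 level of the list had r = 0.72 and rho = 0.65, and r = 0.61 without the 2 farthest. Leaving out libraries 8, 11 and 29 together, chosen after their values were seen, Slc17a6 in Se_LD over Se_Ctr was 0.56 (unadjusted P = 0.119) and Se_HD over Se_LD was -0.59 (unadjusted P = 0.104). The part of neighbouring tissue in the full values was not tested.

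**Figure D5:**
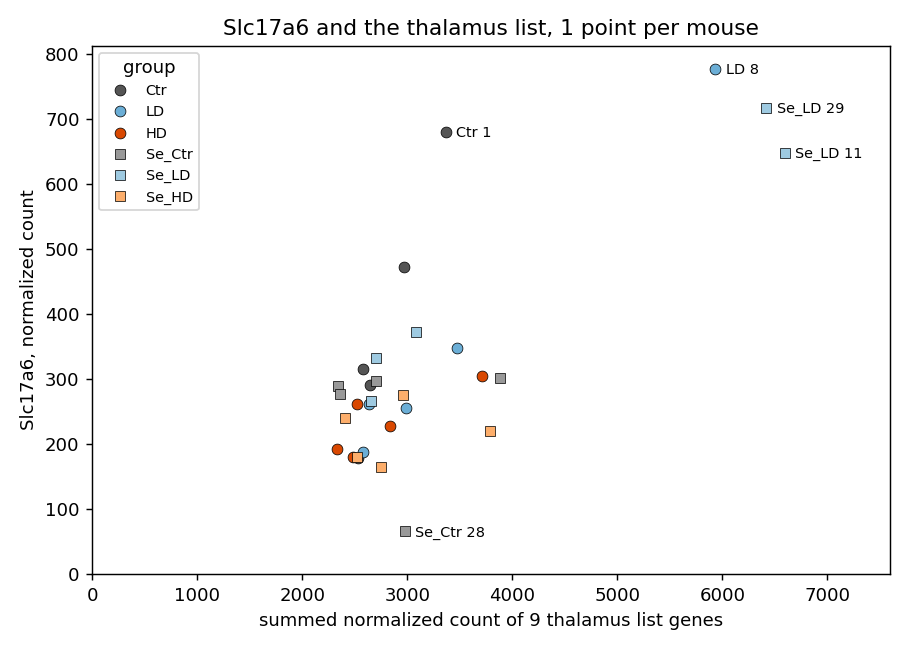
Slc17a6 (normalized count) against the summed normalized count of the 9 thalamus list genes, with 1 point per mouse and the extreme mice named. LD mouse 8 and Se_LD mice 11 and 29 lie apart at the upper right, Ctr mouse 1 is the highest of its group on both axes, and Se_Ctr mouse 28 is lowest at 66.3.

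The remaining comparisons are given by their counts. Between LD and Ctr 0 of 9 members had an unadjusted P under 0.05 (3.01% of genes) and 0 an adjusted one (0% of genes), and the members' log2 fold changes lay between -0.13 and 0.08. The Slc17a6 value of -0.13 was -0.45 without LD mouse 8 and 0.11 without Ctr mouse 1. Between Se_HD and Se_Ctr the counts were 0 of 9 unadjusted (4.19% of genes) and 0 of 9 adjusted (0%), with log2 fold changes from -0.03 to 0.06 (Slc17a6 was at -0.45 without Se_Ctr mouse 28). Selenium alone, Se_Ctr against Ctr, gave 0 of 9 unadjusted (4% of genes) and 0 of 9 adjusted (0%), with values from -0.69 for Slc17a6 to 0.17 for Slc38a3. The Slc17a6 value was -0.27 without Se_Ctr mouse 28 and -0.93 without Ctr mouse 13 (unadjusted P = 0.406 and 0.0156). Se_LD against LD gave 0 of 9 (2.86% of genes) and 0 of 9 (0%), with Slc17a6 at 0.44, and at 0.75 without LD mouse 8. LD pooled over both diets gave 0 of 9 (2.69%) and 0 of 9 (0%), and selenium pooled over all doses 0 of 9 (6.62%) and 0 of 9 (0%). In the F test over Ctr, LD and HD, Slc1a4 alone had an unadjusted P under 0.05 (0.0398, against 6.59% of genes), and 0 members passed after adjustment where 0.0998% of genes did. In the F test over the selenium groups it was Slc17a6 alone (unadjusted P = 0.00805, against 3.92% of genes, with 0% adjusted). Over all 6 groups both of them were under 0.05 (0.0478 and 0.0317, against 6.91% of genes), and 0 of 9 passed after adjustment where 0.444% of genes did.

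The wider pathway was read through 30 further genes of glutamate, glutamine and GABA metabolism and of astrocytic ion and water transport. Between HD and Ctr 5 of 30 had an unadjusted P under 0.05, 3 higher and 2 lower (8.34% of all genes, 5.08% higher and 3.26% lower), and 0 of 30 passed after adjustment. The median log2 fold change of the list was 0.08, against 0.01 over all genes. Slc1a7 was close to absent, at 0 in 13 libraries.

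The higher ones were Aqp4, the astrocytic water channel, Atp1b2, a subunit of the sodium pump, and Slc38a5, a glutamine transporter. Aqp4 measured 1248 to 1723 normalized counts in Ctr and 2704, 3024, 1529, 9364 and 1706 in HD, a log2 fold change of 0.97 (adjusted P = 0.28), and 0.55 without mouse 21. Atp1b2 gave 0.40 (adjusted P = 0.426), and 0.25 without mouse 21. Slc38a5, with means of 38.5 ± 10.5 in Ctr and 59.4 ± 22.6 in HD, gave 0.59 (adjusted P = 0.506), and 0.40 without mouse 21. For these genes, as for Slc1a4, the difference was smaller without mouse 21.

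The lower ones were Gls2, a glutaminase, and Gad1, which makes GABA from glutamate. Gls2 was 139 ± 20.8 in Ctr and 106 ± 18.4 in HD, a log2 fold change of -0.39 (adjusted P = 0.51). Gad1 had 2955, 2610, 2498, 2754 and 2923 normalized counts in the Ctr mice and 1848, 2005, 1888, 2018 and 2269 in the HD mice, without overlap. Its log2 fold change was -0.45 (adjusted P = 0.0695, from 0.00123 to 0.159 over the other settings). HD mouse 21, at 2018, lay inside the range of its group in Gad1.

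With selenium, Se_HD against Se_Ctr, 2 of 29 pathway genes had an unadjusted P under 0.05, near the 4.19% of all genes, and 0 passed after adjustment. They were Slc38a2, the inducible glutamine transporter (0.28, from 1315 ± 70.7 to 1607 ± 203 normalized counts), and Slc7a11, the cystine-glutamate exchanger (0.42, from 377 ± 27.9 to 523 ± 153). Both had an adjusted P of 1.00. Without selenium Slc7a11 gave 0.33 in HD against Ctr (unadjusted P = 0.091, and 0.20 without HD mouse 3) and 0.56 in HD against LD (unadjusted P = 0.00666), and its interaction was 0.09 (unadjusted P = 0.736). Slc38a2 gave 0.08 in HD against Ctr (unadjusted P = 0.581, and -0.05 without HD mouse 21), with an interaction of 0.20 (unadjusted P = 0.239). Between Se_HD and HD 8 of 30 had an unadjusted P under 0.05 (8.38% of all genes) and 1 passed after adjustment (the contrast in which 0.327% of all genes passed). This was Gad1, which was higher in Se_HD at 2433 to 3049.7 normalized counts, by 0.42 on the log2 scale (adjusted P = 0.016). Over the other settings its adjusted P ran from 0.000154 to 0.0488, and without Se_HD mouse 18 it was 0.0605. The difference in the HD effect between the diets was 0.49 for Gad1 (adjusted P = 0.282).

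The genes whose log2 levels were most like those of each member over the 30 libraries were looked for by Pearson r among the 9273 genes whose mean reached 100 normalized counts. For Slc1a2 they were Prex2 (0.80), Dtna (0.77) and 9330132A10Rik (0.75), and for Slc1a3 Slc15a2 (0.78), Gja1 (0.76) and Zcchc24 (0.74). Gja1 is the main gap junction gene of astrocytes. Slc1a1 was most like Rab6 (0.87) and Ube2k (0.86). Slc17a6 was most like Rims3 (0.86), Plcb4 (0.83) and Chrna4 (0.81), and Slc17a7 like Hapln4 (0.82), Grina (0.81) and Atp6v0a1 (0.81). For Glul they were Rasl10b (0.79), Rasgrp2 (0.79) and Usp21 (0.75), for Glud1 Rcn2 (0.83), Rpl14 (0.79) and Ccnl2 (0.79), and for Slc38a3 Gsn (0.81), Glb1 (0.77) and Bckdk (0.75). Slc1a4 was most like Dhrs1 (0.91), Stat3 (0.90) and Ccdc80 (0.89), but within the 25 libraries outside HD these values were 0.08, 0.30 and 0.17, so the likeness of Slc1a4 to these genes rests on the HD mice.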

How the data were processed

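Hippocampus RNA was sequenced as 1 stranded mRNA library per mouse, with single-end reads of 75 bases. According to the study's methods and the labels, the authors trimmed reads with Trim Galore 0.4.2, mapped them with HISAT2 to NCBIM37, counted them with featureCounts and removed genes with a row sum under 10. The deposited values are a signal: counts that the authors divided by DESeq2 size factors. The strand and multi-mapping settings of the counting are not given in the sources used here. All values (100%) of 29 columns were whole reads times 1 factor (tolerance 0.01). LD library 26, whose factor lies close to 1, was left out of the count-based fits. No 2 libraries held identical values.

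Groups were taken from the labels. limma 3.58.1 (R 4.3.3) with a trend was fitted to log2(normalized count + 1), so the fold changes of low genes are understated, for genes with a sum of at least 10. The Ctr, LD and HD libraries, the selenium libraries, and all 30 (diet contrasts, interactions and pooled effects) were fitted apart. P-values were two-sided, with Benjamini-Hochberg adjustment over all genes tested. Calls needed an adjusted P under 0.05, and counts at an unadjusted 0.05 are given beside them. The members, lists and motifs were chosen with earlier results of these data known. Named genes are the members, the pathway genes with an unadjusted P under 0.05 in HD against Ctr or Se_HD against Se_Ctr, and the 3 genes most like each member, of which 1 is not reported here. Slc1a7 and single marker genes of the lists were named after their values were seen. The pathway list shares Gad1, Gad2 and Slc32a1 with the interneuron markers and Aqp4, Ndrg2, Slc6a11 and Slc4a4 with the astrocyte markers. The lists of inhibitory neuron, hippocampus, oligodendrocyte and endothelium genes had 0 genes called in HD against Ctr (0.13% of all genes), with medians of -0.27, -0.11, -0.12 and 0.08. At an unadjusted P under 0.05 they had 2 of 8 (lower), 1 of 10 (lower), 0 of 8 and 0 of 8, where 8.34% of all genes did and 3.26% were lower. The excitatory neuron, thalamus and choroid plexus lists had 0 called (0.13% of all genes), with medians of -0.11, -0.05 and 1.42. Their counts at an unadjusted P under 0.05 were 2 of 8 (lower), 1 of 9 (higher) and 1 of 9 (higher), where 3.26% of all genes were lower and 5.08% higher. Positions are from the annotation of NCBIM37, in which 21326 of 21412 identifiers had a symbol. The alternatives tried were edgeR 4.0.16, DESeq2 1.42.0, quantile normalization, limma without trend, other pseudocounts (0.1, 10), other filters (none, or a mean of 10), a covariate for each run of 6 library numbers, the fit without libraries 8, 11 and 29 (chosen after seeing the data), all libraries in 1 fit, and each mouse left out. The fit was also run on counts simulated for HD against Ctr only, and the outcome is not reported here. That simulation added no outlying mouse such as HD mouse 21 and no neighbouring tissue, so it cannot speak to either. P-values measure the spread between mice.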

Additional observations from a re-analysis of the deposited data

Results flagged for a closer look

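In groups of 5 mice, 1 mouse can lie far from the other 4. The gap between the extreme mouse and its neighbour, as a share of the group's range, was above Dixon's 95% critical value of 0.71 in 5 of the 54 groups of a member and a treatment, where chance gives about 2.7. Slc1a4 in HD mouse 21 was high at 1323 normalized counts (share 0.726). Slc17a6 was high in LD mouse 8 at 777 (0.730) and low in Se_Ctr mouse 28 at 66.3 (0.896). Glul in Se_Ctr mouse 10 was high at 24267 (0.754), and Slc1a1 in Ctr mouse 25 was high at 2099 (0.851). HD mouse 21 was also the highest in Gfap, and LD mouse 8 was also among the 3 highest in the thalamus list. Se_Ctr mouse 28 was also the highest in Slc17a7 at 9454.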

How the results depend on the processing

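No member passed the adjusted threshold in any of the 17 comparisons (F tests included) under the alternatives run for it. There were 41 in all, of which 30 leave out 1 mouse each. A dose contrast had the 15 leave-outs of its own diet, and the F tests had no edgeR, DESeq2 or covariate version. The lowest adjusted P of a member over the contrasts was 0.127, for Slc1a4 in HD against Ctr with all 30 libraries in 1 fit. Of 4281 alternative log2 fold changes of members, 232 had the other sign than the main value, none of them at an unadjusted P under 0.05 in either. For the 7 members other than Slc1a4 and Slc17a6, 22 of 3332 values had an unadjusted P under 0.05, 20 of them in Slc1a3 and 2 in Slc1a2. Over all genes, the calls in HD against Ctr ranged from 0 (limma without trend) to 200 (all libraries in 1 fit), with 28 in edgeR, 176 in DESeq2 and 26 in the fit reported. For Gad1 in HD against Ctr, the difference passed the adjusted threshold in DESeq2, with all libraries in 1 fit, and without LD mouse 20 or HD mouse 27. Each covariate fit used 15 libraries of 5 sets for the dose contrasts, and edgeR and DESeq2 had 4 LD mice. No label describes a pairing of mice between groups, and each library has its own number. Each run of 6 library numbers held 1 library of every group, so a fit blocked on these runs was possible. The covariate for each run of 6 library numbers, which no label describes as a pairing, gave no member a call. Slc17a6, at 74 to 971 reads, had the lowest depth of the members.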
